A study of Arabidopsis thaliana with 12 samples.

Results

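The effect of losing IRE1B in a *bli* mutant background was examined by setting 3 *bli ire1b* libraries against 3 *bli* libraries, which are 6 of the 12 RNA-Seq libraries of the series. All plants were Arabidopsis thaliana seedlings of the Col accession, grown on plates in long days, and the labels name no treatment. The *bli ire1b* seedlings carried T-DNA insertions in both *BLI* and *IRE1B*, and the *bli* seedlings carried the same *BLI* insertion alone, so the insertion in *BLI* is common to both groups. Each mutation is represented by 1 insertion allele combined by crossing. RNA came from whole seedlings, in which fewer cells of a type and less RNA per cell cannot be told apart. The labels give an age of 12 days, whereas the methods of the study give a later one. The other 6 libraries were *bli ire1a* and WT, with 3 each, and they entered the model to estimate the spread. The methods of the study call the 3 libraries of a genotype biological replicates. Neither the methods nor the labels say that they came from separate growth experiments, so the p-values measure the spread between these samples.

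IRE1 proteins sit in the membrane of the endoplasmic reticulum (ER), where they sense unfolded proteins and, through a cytosolic RNase domain, splice the mRNA of the transcription factor bZIP60. This signalling, together with the membrane-bound factors bZIP17 and bZIP28, is the unfolded protein response (UPR), which raises the synthesis of ER chaperones and folding enzymes. Arabidopsis has a pair of canonical IRE1 genes, *IRE1A* and *IRE1B*. BLISTER (BLI) is a plant-specific protein first described as a partner of the Polycomb-group protein CURLY LEAF. Gene-level values cannot show bZIP60 splicing.

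The deposited values were FPKM (fragments on a transcript per kilobase of its length and scaled to the number of mapped fragments), and 20645 of 33557 genes had a mean of at least 0.5 FPKM over the 12 libraries and were tested. Summed over all genes, the libraries held 982487 to 995306 FPKM in *bli ire1b* and 981494 to 998639 FPKM in *bli*. Log2(FPKM + 0.1) correlated at 0.954 to 0.959 among the *bli ire1b* libraries, at 0.952 to 0.960 among the *bli* libraries and at 0.942 to 0.957 between the groups (Pearson's r across genes, which are not independent replicates). Read counts were not used here, so no counting error is given for single values. The green-tissue markers *LHCB1.1*, *RBCS1A* and *RCA* were strongly expressed in every library, with summed values of 23753 to 26288 FPKM in *bli ire1b* and 24329 to 25825 FPKM in *bli*.

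The mutated genes were examined first. *IRE1B* (AT5G24360, chr5:8316388-8319981 on the plus strand of TAIR10.1) had 4.84, 5.34 and 4.56 FPKM in the *bli ire1b* libraries, against 10.7, 10.9 and 11.4 FPKM in the *bli* libraries. The groups did not overlap, and *IRE1B* fell by 1.15 on the log2 scale (standard error 0.09, adjusted p = 0.000253 from limma). The gene-level value does not show whether the remaining transcript was intact. Its paralog *IRE1A* (AT2G17520) had 21.7, 21.4 and 23.4 FPKM in *bli ire1b* and 22.9, 22.9 and 24.2 FPKM in *bli*, and *BLI* (AT3G23980) had 11.8, 9.75 and 10.8 FPKM in *bli ire1b* and 11, 11.8 and 9.95 FPKM in *bli*. Neither of these 2 genes differed by more than the spread between libraries (log2 differences of -0.07 and -0.02, standard errors 0.09 and 0.14, adjusted p = 0.699 and 0.962 from limma).

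After Benjamini-Hochberg adjustment over all tested genes, at p of at most 0.05 from limma, 227 genes were higher and 670 genes were lower in *bli ire1b* than in *bli*, which is 1.1% and 3.25% of the tested genes. Most of these differences were modest, since 184 of the 227 rises and 481 of the 670 falls were under 2-fold. The cutoffs used in the study (at least a doubling, or a fold of 0.5 or less, with unadjusted p up to 0.05) were also applied to the limma fit. With them, 111 genes were higher (0.538%) and 373 were lower (1.81%). The study applied its cutoffs to results of another program, Cuffdiff, so these counts are not directly comparable with its own. The median log2 fold change of all tested genes was 0. The excess of falls depends in size on the scaling, with 284 rises and 510 falls after quantile normalization. The number of calls leaned on single libraries. The 227 rises were 50, 55 and 113 without *bli ire1b* replicates 1, 2 and 3, and 80 and 91 without *bli* replicates 1 and 2. The 670 falls were 200 and 260 without *bli ire1b* replicates 1 and 2, and 263 and 285 without *bli* replicates 1 and 2. An exact permutation of 3 libraries against 3, two-sided, gives no p under 0.1 for a single gene, so adjusted p-values are from limma throughout.

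**Figure D1:**
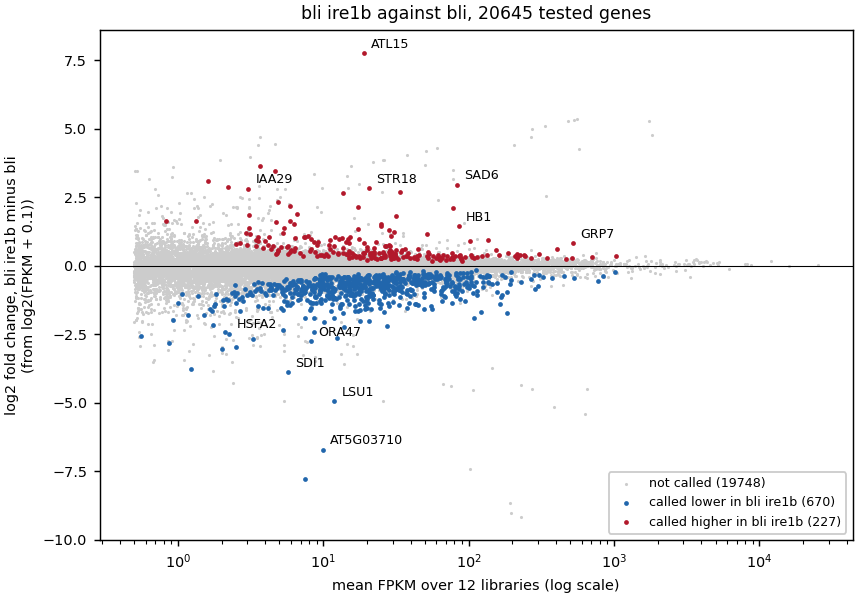
Log2 fold change in *bli ire1b* minus *bli* (y axis, from log2(FPKM + 0.1)) against mean FPKM over the 12 libraries (x axis, log scale) for 20645 genes, with the 227 genes called higher in red and the 670 called lower in blue. Blue points outnumber red ones, and *LSU1*, *SDI1* and AT5G03710 lie among the lowest called points while *ATL15* lies at the top.

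The unfolded protein response was the first group of interest, because IRE1 acts in it. Of 25 ER chaperones and folding enzymes, 0 were called in either direction at adjusted p from limma (median log2 fold change 0.03). Of 8 genes of ER-associated degradation, which removes misfolded proteins, 0 were called (median -0.06). Over all tested genes, 1.1% were called higher and 3.25% lower, so 0 calls in lists of this size is near the background. At an unadjusted p of at most 0.05, 7 of the 25 and 1 of the 8 passed, beside 4296 of all 20645 tested genes. *BIP1*, encoding the major ER Hsp70 chaperone, had 259.8, 242 and 244 FPKM in *bli ire1b* and 253, 238 and 241 FPKM in *bli*. The stress-inducible *BIP3* had 57.8, 51.4 and 51.6 FPKM in *bli ire1b* and 76, 72.4 and 70.1 FPKM in *bli*. Every *bli ire1b* library of *BIP3* lay below every *bli* library. The log2 difference of *BIP3* was -0.44, with a standard error of 0.45 (adjusted p = 0.622 from limma). That standard error comes from the model of all 12 libraries, so it also draws on the spread within *bli ire1a* and WT. In a fit of *bli ire1b* and *bli* alone, 1 of the 25 chaperones and folding enzymes was called lower and 0 higher. Which gene that was is not given here.

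*bZIP60*, whose mRNA IRE1 splices, had 177, 156 and 158 FPKM in *bli ire1b* and 193, 207 and 181 FPKM in *bli* (log2 difference -0.24, standard error 0.18, adjusted p = 0.483 from limma). *NAC103*, a factor downstream of bZIP60, had 41.2, 36.9 and 35 FPKM in *bli ire1b* and 43.8, 45.7 and 39.4 FPKM in *bli*, and these ranges overlapped. Its levels were 2.39, 1.6 and 1.75 FPKM in *bli ire1a* and 0.487, 0.696 and 0.88 FPKM in WT. The membrane-bound factors *bZIP17*, *bZIP28*, *NAC062* and *NAC089* also missed the threshold. *NAC089* came closest, at 23.49, 21.1 and 21.4 FPKM in *bli ire1b* against 26.4, 31.1 and 29 FPKM in *bli*, with a log2 difference of -0.39 (standard error 0.10, adjusted p = 0.0607 from limma). *SARA1*, a small GTPase of vesicle traffic from the ER, had 15, 11.2 and 13 FPKM in *bli ire1b* and 34.4, 27.1 and 25.2 FPKM in *bli*. The groups of *SARA1* did not overlap, and its log2 difference of -1.14 missed the threshold in the model of all libraries (adjusted p = 0.0833 from limma) and passed with a pseudocount of 1, in a fit of the 2 genotypes alone and without WT replicate 1 or 2. Of the 12 UPR factors and stress markers, *MRN1* (marneral synthase, of triterpene metabolism) was the 1 gene called, with 0.553, 0.853 and 0.402 FPKM in *bli ire1b* and 3.17, 2.13 and 2.56 FPKM in *bli* (log2 fall of 1.99, adjusted p = 0.0401 from limma). That call was lost in 9 of the 20 alternatives in which the gene was tested, and the count of called markers ran between 0 and 4 when single libraries were left out. *MRN1* had 0.114, 0.316 and 0.623 FPKM in *bli ire1a* and 0.0823, 0.18 and 0.166 FPKM in WT. *NSF* (AT4G21730) and *BAG7*, an ER-resident cochaperone, had log2 differences of 0.05 and 0.07 with standard errors of 0.25 and 0.06. The lipid transfer protein genes *LTP3* and *LTP4* had log2 differences of -1.02 and -1.24 and were not called (adjusted p = 0.157 and 0.169 from limma). At an unadjusted p of at most 0.05 in the same limma fit, 6 of the 12 passed, beside 4296 of all 20645 tested genes. Of the 12 log2 differences, 9 were below 0. The study treats *MRN1* and *LTP4* as non-canonical markers, which tunicamycin, an inducer of ER stress, does not raise.

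**Figure D2:**
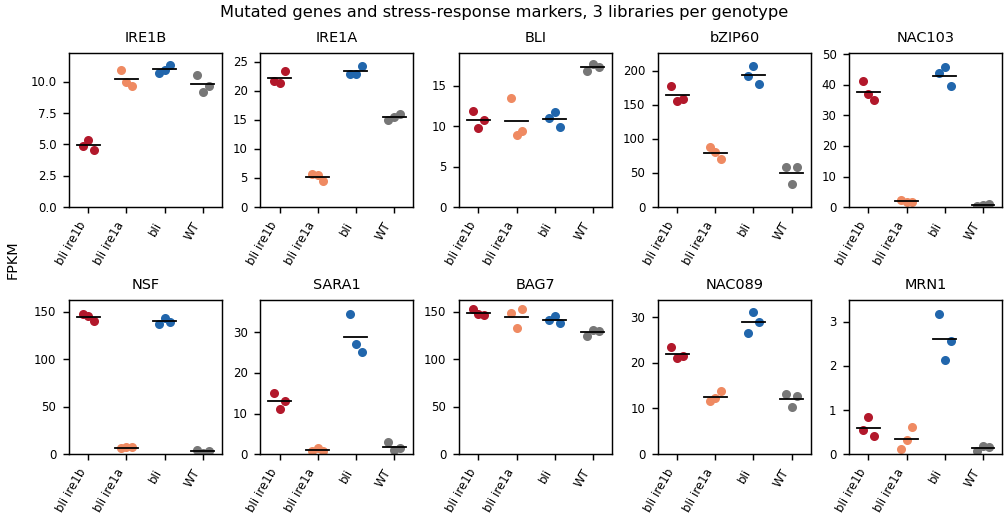
FPKM (y axes) of the mutated genes and stress markers in the 3 libraries of *bli ire1b*, *bli ire1a*, *bli* and WT, with points for libraries and bars for the mean of 3. *IRE1B* is low in *bli ire1b* alone, whereas *bZIP60* (177, 156 and 158 FPKM in *bli ire1b*, against 193, 207 and 181 FPKM in *bli*), *NAC103* and *NSF* were not called.

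Genes of sulfate starvation fell almost throughout their list. Plants short of sulfate induce high-affinity sulfate transporters, the APS reductases that reduce activated sulfate, enzymes that recycle sulfur from glutathione and glucosinolates, and the small LSU and SDI proteins, largely through the transcription factor SLIM1. Of 12 listed genes, 11 fell in *bli ire1b* and 0 rose, against 3.25% of all tested genes lower, with a median log2 fold change of -1.17 where that of all tested genes was 0. The list was written with earlier results of these data known, so its count is a description.

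*LSU1* and *SDI1* showed the largest falls of the list. *SDI1*, encoding a repressor of glucosinolate synthesis under low sulfur, had 0.307, 0.569 and 0.203 FPKM in *bli ire1b* against 9.62, 6.99 and 3.79 FPKM in *bli*, and fell by 3.89 on the log2 scale (standard error 0.45, adjusted p = 0.00203 from limma). *LSU1* had 0.742, 0 and 0 FPKM in *bli ire1b*, where 2 libraries listed it at 0, against 13.8, 4.38 and 3.92 FPKM in *bli* (adjusted p = 0.0128 from limma). Because 0 can be a failed estimate, no fold is given for *LSU1*. *LSU2* had 6.97, 7.91 and 12.5 FPKM in *bli ire1b* and 41, 23.7 and 17.5 FPKM in *bli*, and *SDI2* had 11.1, 12.6 and 11 FPKM in *bli ire1b* and 32.1, 28.6 and 21.5 FPKM in *bli*. Every *bli ire1b* library lay below every *bli* library for these 4 genes, as for 3048 of all 20645 tested genes. *LSU2* and *SDI2* fell by 1.53 and 1.22 on the log2 scale (standard errors 0.30 and 0.15, adjusted p = 0.0175 and 0.00316 from limma).

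Among the enzymes, *GGCT2;1*, a gamma-glutamyl cyclotransferase that breaks down glutathione, had 3.57, 3.43 and 4.59 FPKM in *bli ire1b* and 33.6, 18.5 and 10.4 FPKM in *bli* (log2 fall of 2.25, standard error 0.40, adjusted p = 0.0122 from limma). *BGLU28*, a glucosinolate-hydrolysing beta-glucosidase, had 0.154, 0.19 and 0.306 FPKM in *bli ire1b* and 1.25, 1.11 and 0.677 FPKM in *bli*. *APR3*, 1 of 3 APS reductase genes, had 51.2, 57.9 and 57.1 FPKM in *bli ire1b* against 159, 115 and 94 FPKM in *bli*. *APR1* and *APR2* fell by 0.90 and 0.82 on the log2 scale, beside 1.11 for *APR3* (adjusted p = 0.0226, 0.0131 and 0.00845 from limma). The *bli* libraries were not alike here, since replicate 1 was the highest of the 3 for *GGCT2;1* and all 3 APS reductase genes.

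The transporters moved less. *SULTR1;2*, which takes up sulfate in roots, had 15.8, 20.6 and 22.9 FPKM in *bli ire1b* and 33.9, 29.8 and 33 FPKM in *bli*, and *SULTR4;2*, which releases sulfate from the vacuole, had 5.8, 7.41 and 6.82 FPKM in *bli ire1b* and 10.9, 11.4 and 10.4 FPKM in *bli*. They fell by 0.72 and 0.70 on the log2 scale (adjusted p = 0.014 and 0.0191 from limma). The root transporter *SULTR1;1* was the 1 member not called, at 0.295, 0.352 and 0.503 FPKM in *bli ire1b* and 0.333, 0.323 and 0.354 FPKM in *bli*. Of 15 further sulfate genes, listed after the values were seen, 2 fell and 0 rose, beside 3.25% and 1.1% of all tested genes. The other 13 were not called, and the median log2 fold change of the 15 was -0.1. *LSU3* had 1.24, 1.91 and 1.63 FPKM in *bli ire1b* and 24.3, 9.47 and 4.84 FPKM in *bli*, and *ATPS2*, an ATP sulfurylase, fell by 0.29. *SLIM1* itself had 10.2, 10.14 and 10.7 FPKM in *bli ire1b* and 11.3, 10.6 and 10.7 FPKM in *bli*, a log2 difference of -0.07 with a standard error of 0.08.

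*SDI1* had 1.27, 3.02 and 1.34 FPKM in *bli ire1a* and 21, 10.9 and 9.74 FPKM in WT, and *APR3* had 54.1, 65.1 and 47 FPKM in *bli ire1a* and 112, 89.4 and 85.2 FPKM in WT. With single libraries left out, the 11 falls were 5 and 6 without *bli ire1b* replicates 1 and 2, 5 and 7 without *bli* replicates 1 and 2, and 10 or 11 without any other library. *SDI1*, *SDI2* and *APR3* passed in all 21 alternatives. Markers of root cells were set beside this result. Of 16 root markers, 1 fell and 0 rose, beside 3.25% and 1.1% of all tested genes. All 16 log2 fold changes were below 0, with a median of -0.38, while 10284 of the 20645 tested genes were below 0. The summed level of the root markers was 1080 to 1478 FPKM in *bli ire1b* and 1398 to 1657 FPKM in *bli*, with no marker at 0 in all 3 libraries of either genotype. *CASP2*, of the root endodermis, had 3.95, 7.31 and 7.83 FPKM in *bli ire1b* and 13.8, 11.2 and 16.9 FPKM in *bli* (adjusted p = 0.038 from limma). The part of root tissue in the sulfate result was not tested.

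**Figure D3:**
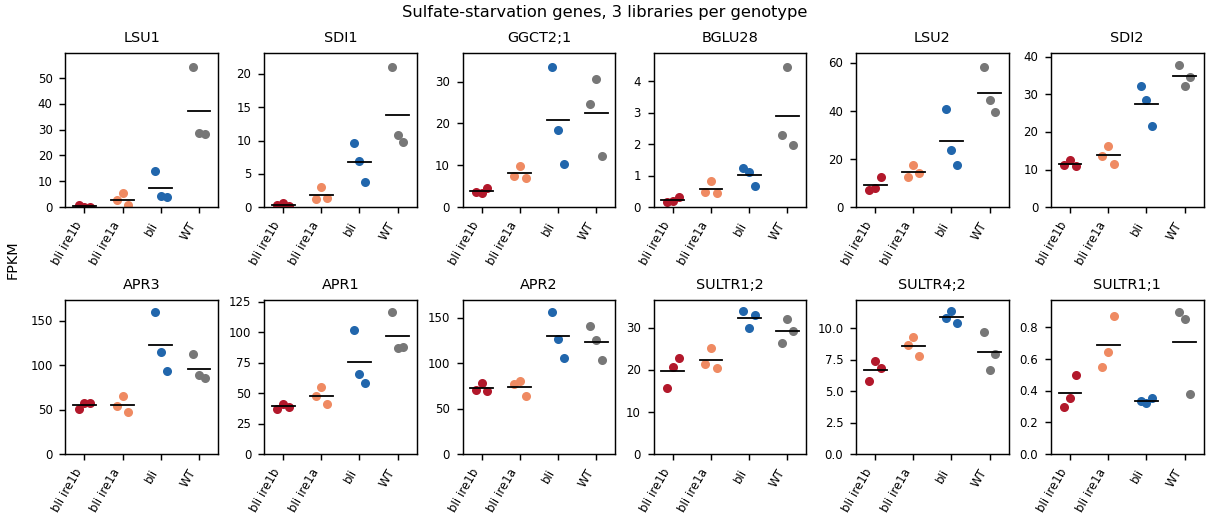
FPKM (y axes) of the 12 sulfate-starvation genes in the 3 libraries of *bli ire1b*, *bli ire1a*, *bli* and WT, with points for libraries and bars for the mean of 3. For 11 genes all *bli ire1b* points lie below all *bli* points, and *SULTR1;1* is the exception. The same separation held for 3048 of all 20645 tested genes.

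The core of a sulfur-responsive element, GAGAC, was looked for on both strands in the 250 bases before each gene start, because these genes moved together. It occurred in 3 of the 12 listed promoters, against 25.4% of 20465 promoters of tested genes. The promoter of *SDI1*, from chr5:19807854-19808103 on the minus strand of TAIR10.1, is shown because this gene had the largest fall among listed genes without a value of 0, with the match in capitals.
SDI1: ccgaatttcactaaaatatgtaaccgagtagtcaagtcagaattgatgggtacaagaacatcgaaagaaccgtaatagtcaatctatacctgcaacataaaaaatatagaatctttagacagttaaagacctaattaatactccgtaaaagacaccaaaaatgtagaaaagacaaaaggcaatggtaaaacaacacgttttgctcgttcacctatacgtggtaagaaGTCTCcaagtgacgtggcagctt

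Many genes of the low-oxygen response rose. When oxygen is short, group VII ethylene response factors, which the plant cysteine oxidases otherwise mark for breakdown, switch on fermentation enzymes, sucrose synthases and a haemoglobin. A list of 44 such genes was written after the values were seen. Of these, 20 rose and 3 fell, against 1.1% and 3.25% of all tested genes, and the median log2 fold change was 0.94.

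The fermentation and metabolic genes covered a wide range. *PDC1*, encoding the pyruvate decarboxylase that starts ethanol fermentation, had 44.4, 49.1 and 63.1 FPKM in *bli ire1b* against 4.94, 6.13 and 16.2 FPKM in *bli*, a rise of 2.69 on the log2 scale (standard error 0.39, adjusted p = 0.00556 from limma). *PDC2* rose by 0.41, with 73.5, 75 and 78.4 FPKM in *bli ire1b* and 57, 58 and 55.5 FPKM in *bli*. *ADH1*, the alcohol dehydrogenase of the next step, had 90.7, 99.3 and 185 FPKM in *bli ire1b* and 19.9, 44.3 and 70.9 FPKM in *bli* and was not called (log2 difference 1.58, standard error 0.45, adjusted p = 0.0745 from limma). Sucrose synthase *SUS4* had 8.83, 16.9 and 25.4 FPKM in *bli ire1b* and 3.22, 1.66 and 7.69 FPKM in *bli*, and haemoglobin *HB1* had 153, 126 and 145 FPKM in *bli ire1b* and 37.4, 52.2 and 71.4 FPKM in *bli*. The groups did not overlap for either gene, and the *SUS4* call was lost in 14 of 21 alternatives while that of *HB1* was kept in all.

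*HRE2*, a group VII ethylene response factor, had 10.5, 8.35 and 7.66 FPKM in *bli ire1b* and 1.13, 1.94 and 2.8 FPKM in *bli* (rise of 2.2 on the log2 scale, adjusted p = 0.0137 from limma). The cysteine oxidase genes *PCO1* and *PCO2* rose by 1.09 and 1.34, and *HRA1*, which attenuates the response, by 1.24 (adjusted p = 0.0328, 0.0228 and 0.0127 from limma). *PCO1* had 45.8, 41.7 and 51.4 FPKM in *bli ire1b* and 13.4, 26.2 and 28.7 FPKM in *bli*, and *HRA1* had 52.7, 48.2 and 55.1 FPKM in *bli ire1b* and 13.9, 28.5 and 26.8 FPKM in *bli*. *ACO1*, which makes ethylene, and *ETR2*, an ethylene receptor, rose by 1.54 and 1.03. Against this pattern *PP2-A13*, *ACHT5* and *PHI-1* fell, by 1.35, 1.06 and 1.59, and *HRE1*, the other listed group VII factor, had a log2 difference of 0.59 that was not called (adjusted p = 0.207 from limma).

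Among the less known members, *SAD6* (annotated as *FTM1*), an acyl-carrier-protein desaturase, had 171, 138 and 159.6 FPKM in *bli ire1b* and 11.8, 18.7 and 36 FPKM in *bli*, which made it both the largest fold rise of the list at 2.96 on the log2 scale and a large one in FPKM (adjusted p = 0.0022 from limma). *STR18* (AT2G17850), a rhodanese-type sulfurtransferase, had 43.4, 44.5 and 41.8 FPKM in *bli ire1b* against 3.8, 6.19 and 9.09 FPKM in *bli*. The *bli* libraries differed among themselves, with replicate 1 the lowest and replicate 3 the highest for *PDC1*, *HB1* and *SAD6*. Mean levels in *bli ire1a* and WT lay between those of *bli ire1b* and *bli* for *SAD6* with 78.5, 77.6 and 117 FPKM in *bli ire1a* and 45.1, 86.2 and 58.9 FPKM in WT, and *STR18* with 14.8, 22.8 and 27.6 FPKM in *bli ire1a* and 9.35, 17.9 and 8.25 FPKM in WT. The 20 rises were 7, 9 and 11 without *bli ire1b* replicates 1, 2 and 3, and 10 and 11 without *bli* replicates 1 and 2. In a fit of the 2 genotypes alone there were 8.

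**Figure D4:**
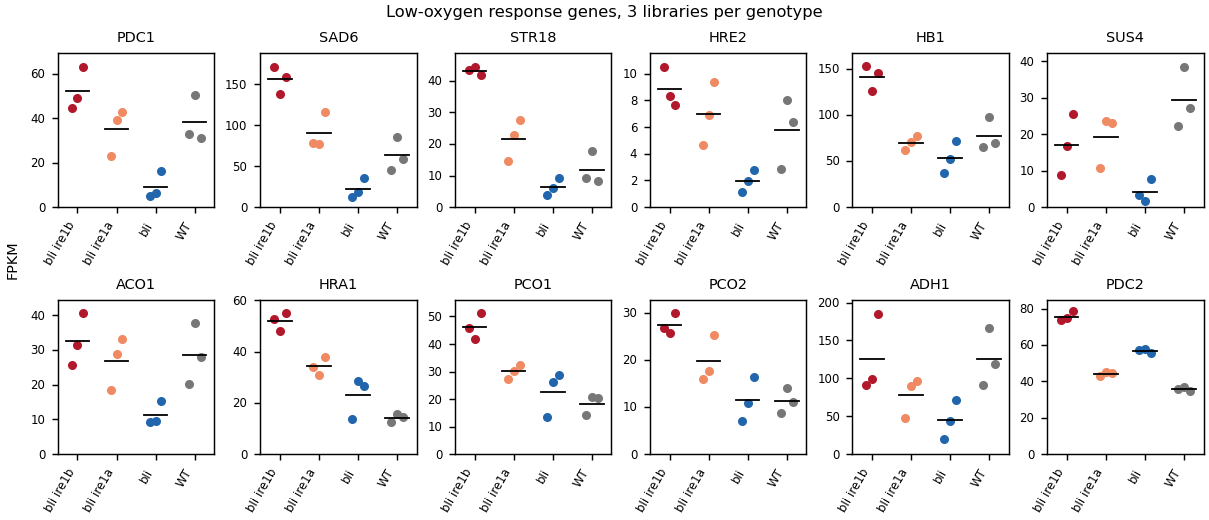
FPKM (y axes) of 12 low-oxygen response genes in the 3 libraries of *bli ire1b*, *bli ire1a*, *bli* and WT, with points for libraries and bars for the mean of 3. The 12 genes were picked from the 44 listed after their values were seen, and leave out the 3 members called lower. In these panels the *bli ire1b* points lie above the *bli* points, with *ADH1* not passing the test (adjusted p = 0.0745 from limma). Of all 44 log2 fold changes, 9 were below 0. Over all 20645 tested genes, 2656 had every *bli ire1b* library above every *bli* library.

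A motif known from anaerobic promoters, TGGTTT on either strand, occurred in 14 of the 44 listed promoters (31.8%) and in 27.6% of the 20465 promoters. *PDC1* held 3 matches, which is why its 250 bases are shown, from chr4:15954804-15955053 on the minus strand of TAIR10.1, with matches in capitals (on this strand they read AAACCA). The promoter of *SAD6*, chr1:16577271-16577520 on the plus strand, held 1.
PDC1: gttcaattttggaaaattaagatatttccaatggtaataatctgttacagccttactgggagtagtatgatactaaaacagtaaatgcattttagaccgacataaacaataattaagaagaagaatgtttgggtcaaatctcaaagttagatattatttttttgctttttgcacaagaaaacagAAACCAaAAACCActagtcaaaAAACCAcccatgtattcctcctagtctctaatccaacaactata
SAD6: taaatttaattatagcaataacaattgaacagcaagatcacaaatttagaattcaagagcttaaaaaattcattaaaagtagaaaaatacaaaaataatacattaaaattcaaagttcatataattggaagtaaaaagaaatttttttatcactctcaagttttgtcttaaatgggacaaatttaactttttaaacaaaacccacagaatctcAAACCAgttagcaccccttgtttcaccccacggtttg

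Many genes of fast touch and wound responses fell. Of 27 such genes, in a list also written after the values were seen, 15 fell and 0 rose, against 3.25% and 1.1% of all tested genes (median log2 fold change -1.21). Many encode transcription factors of early stress responses. *ORA47*, an ethylene response factor of jasmonate signalling, had 2.16, 1.88 and 1.74 FPKM in *bli ire1b* against 14.6, 15.4 and 11 FPKM in *bli*, a fall of 2.75 on the log2 scale (standard error 0.45, adjusted p = 0.00935 from limma). *RRTF1*, of the redox response, had 1.4, 0.288 and 0.386 FPKM in *bli ire1b* and 6.53, 7.2 and 3.25 FPKM in *bli*, and *ACS6*, of ethylene synthesis, had 7.4, 5.88 and 6.53 FPKM in *bli ire1b* and 25.7, 18.1 and 18.9 FPKM in *bli*. The zinc finger factors *ZAT12* and *ZAT10* fell by 1.92 and 1.58, the cell wall enzyme gene *TCH4* by 1.89 and *ERF104* by 1.38 (adjusted p = 0.0225, 0.0302, 0.0453 and 0.0095 from limma). The groups did not overlap for these genes, and 3048 of all 20645 tested genes were likewise lower without overlap. *TCH4* had 54.9, 44.4 and 53.4 FPKM in *bli ire1b* and 214, 171 and 184 FPKM in *bli*, beside 163, 105 and 62.6 FPKM in *bli ire1a* and 54.1, 38.3 and 171 FPKM in WT, so that replicates of *bli ire1a* and WT differed widely. The 15 falls were 4, 3 and 7 without *bli ire1b* replicates 1, 2 and 3, and 3, 4 and 8 without *bli* replicates 1, 2 and 3.

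The calls in the heat, drought and oxidative stress lists were all falls. Over all tested genes, 3.25% fell and 1.1% rose. Of 15 heat shock genes, 3 fell and 0 rose, with a median log2 fold change of -0.76. *HSFA2*, the factor that prolongs the heat response, had 1.22, 0.501 and 0.834 FPKM in *bli ire1b* and 7.44, 7.64 and 2.11 FPKM in *bli*, and the coactivator *MBF1C* had 18, 13.8 and 21.2 FPKM in *bli ire1b* and 56.3, 45.1 and 35.1 FPKM in *bli*. They fell by 2.48 and 1.36 on the log2 scale (adjusted p = 0.0381 and 0.0132 from limma). The *HSFA2* call was lost in 11 of 21 alternatives, and *HSFA2* had 1.5, 1.46 and 0.715 FPKM in *bli ire1a* and 1.03, 2.18 and 0.493 FPKM in WT. The small heat shock gene AT1G59860, outside the list, fell by 2.44. Of 33 abscisic acid, drought and cold genes, 6 fell and 0 rose (median -0.35). *DREB2A*, a factor of drought and heat responses, had 4.33, 3.74 and 4.52 FPKM in *bli ire1b* against 19.3, 16.8 and 12.4 FPKM in *bli*, and fell by 1.90 (standard error 0.27, adjusted p = 0.00515 from limma). It had 6.13, 7.49 and 3.37 FPKM in *bli ire1a* and 4.34, 3.1 and 4.48 FPKM in WT. Galactinol synthase gene *GOLS1* fell by 1.00 and dehydrin gene *LTI30* by 0.93 (adjusted p = 0.0022 and 0.00398 from limma). Of 22 genes of oxidative stress and cell death, 4 fell and 0 rose, among them the kinase gene *OXI1* with a fall of 1.28.

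Of 15 phosphate-starvation genes, 3 fell and 0 rose, beside 3.25% and 1.1% of all tested genes. *SPX1*, an inhibitor of the phosphate response, had 8.55, 8.7 and 8.48 FPKM in *bli ire1b* and 24.7, 20.4 and 13.6 FPKM in *bli*, and the purple acid phosphatase gene *PAP17* had 6.85, 6.82 and 11.2 FPKM in *bli ire1b* and 28.8, 20.4 and 18.6 FPKM in *bli*. They fell by 1.14 and 1.45 on the log2 scale (adjusted p = 0.0267 and 0.0173 from limma). Of 25 iron genes, 1 fell and 1 rose, a share of falls near that of all tested genes.

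Growth and developmental lists held calls in both directions, and 1.1% of all tested genes rose and 3.25% fell. Of 29 auxin, shade and cytokinin genes, 2 rose and 0 fell. *IAA29*, an auxin-responsive repressor, had 4.74, 4.95 and 4.22 FPKM in *bli ire1b* and 0.798, 0.169 and 1.16 FPKM in *bli*, and *YUC9*, of auxin synthesis, had 1.31, 1.61 and 1.04 FPKM in *bli ire1b* and 0.343, 0.303 and 0.417 FPKM in *bli*. Their rises were 2.81 and 1.63 on the log2 scale (adjusted p = 0.00754 and 0.0052 from limma). Of 104 bHLH factors, 4 rose and 5 fell. Among them *PRE1*, a growth-promoting helix-loop-helix protein, rose by 1.62 with 6.77, 6.64 and 5.08 FPKM in *bli ire1b* and 1.34, 2.14 and 2.43 FPKM in *bli*. Of 22 expansins, which loosen cell walls, 1 rose and 2 fell, with 16 of the 22 log2 fold changes below 0. *EXPA16* rose by 1.61, and *EXPA8* and *EXPB1* fell by 0.95 and 0.88 (adjusted p = 0.0425, 0.0414 and 0.0435 from limma). Of 60 SAUR genes, 3 rose and 2 fell, and 42 of the 60 log2 fold changes were above 0 (median 0.35), beside 10319 of all 20645 tested genes. In a list of 19 stomatal lineage genes written after the values were seen, 4 rose and 1 fell. *SPCH*, which starts the lineage, had 7.08, 7.34 and 6.71 FPKM in *bli ire1b* and 3.67, 5.07 and 2.4 FPKM in *bli*, and *EPF2*, a secreted inhibitor of it, had 5.31, 7.37 and 4.21 FPKM in *bli ire1b* and 1.22, 3.32 and 1.57 FPKM in *bli*. *TMM* and *SDD1* rose by 0.95 and 0.89 (adjusted p = 0.0436, 0.0208, 0.0131 and 0.0168 from limma for *SPCH*, *EPF2*, *TMM* and *SDD1*), and *MYB88* fell by 0.54. Ribosomal proteins had 12 rises and 0 falls among 357 genes, with a median log2 fold change of 0.14 and 322 of the 357 above 0.

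Of 25 clock genes, 3 fell and 1 rose, beside 3.25% and 1.1% of all tested genes. At an unadjusted p of at most 0.05 from limma, 14 of the 25 passed, beside 4296 of all 20645 tested genes. The morning genes *RVE1*, *COL2* and *LNK1* fell by 1.37, 1.1 and 0.78, and *GRP7*, an RNA-binding protein gene with an evening peak, had 763, 765 and 718 FPKM in *bli ire1b* against 344, 383 and 565 FPKM in *bli* (rise of 0.83 on the log2 scale, adjusted p = 0.0217 from limma). The labels give no time of harvest, and its part in these values was not tested. *GRP7* had the largest rise in FPKM among the called genes whose groups did not overlap and whose mean was at least 1 FPKM. The largest such fall was that of AT2G25450, a 2-oxoglutarate-dependent dioxygenase, with 715, 776 and 975 FPKM in *bli ire1b* and 1103, 1361 and 1136 FPKM in *bli* (adjusted p = 0.0304 from limma).

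Large gene families were read against the 670 falls and 227 rises (3.25% and 1.1%) of all tested genes. NAC factors had 11 falls and 0 rises among 80 genes, MYB factors 13 falls and 0 rises among 122, WRKY factors 6 falls and 0 rises among 58, and cytochrome P450s 23 falls and 1 rise among 165. Receptor-like kinases had 5 rises and 1 fall among 227. Of 25 genes of salicylic acid and pathogen defence, 1 fell and 1 rose. *WRKY70*, a regulator of salicylic acid signalling, fell by 1.26, and *PR5*, a pathogenesis-related protein gene, rose by 0.59 (adjusted p = 0.0175 and 0.0404 from limma). Lists with 0 calls in either direction included the 44 nuclear photosystem and light-harvesting genes (median log2 fold change 0.08) and 30 jasmonate and ethylene defence genes (median -0.42), where 5 and 7 genes had an unadjusted p of at most 0.05 in the same limma fit, beside 4296 of all 20645.

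**Figure D5:**
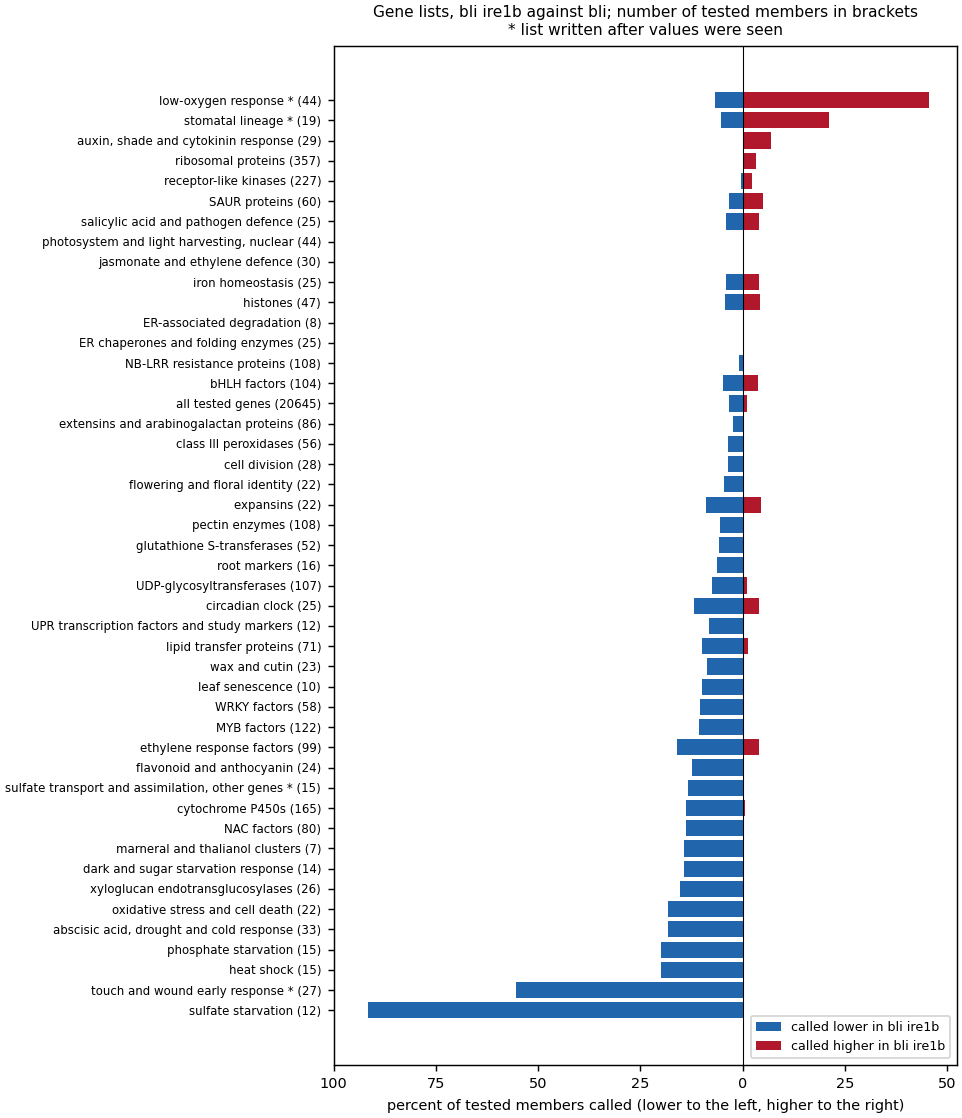
Percent of tested members called lower (bars to the left) or higher (bars to the right) in *bli ire1b* than in *bli* at adjusted p of at most 0.05, for gene lists (y axis, with the number of tested members). All tested genes stand at 3.25% lower and 1.1% higher, sulfate starvation at 11 of 12 lower and the low-oxygen list at 20 of 44 higher, and lists with an asterisk were written after the values were seen.

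Some of the largest values belong to single loci. *ATL15* (AT1G22500, a RING-type ubiquitin ligase) had 18.3, 24 and 22.3 FPKM in *bli ire1b* and was listed at 0 in all 3 *bli* libraries, while *bli ire1a* had 32.5, 35 and 30.5 FPKM and WT 19.9, 25.7 and 21.4 FPKM (adjusted p = 3.93e-11 from limma). *ATL15* overlaps AT1G05753 by 548 bases and AT1G22510 by 83 bases, both on the other strand. AT1G22510, singled out after its values were seen, had 5.14, 4.55 and 5.42 FPKM in *bli ire1b* and 1.58, 1.12 and 1.15 FPKM in *bli*. AT5G03710 went the other way, being listed at 0 in all 3 *bli ire1b* libraries and at 4.1, 13.3 and 20.6 FPKM in *bli*. It overlaps *HSFA3* on the other strand, and whether strand was used in counting is not given in the sources used here. AT4G31351 was also listed at 0 in all 3 *bli ire1b* libraries, with 18.4, 19.7 and 28.8 FPKM in *bli*, but it has a near-identical copy (AT4G31408, 98.2% over 386 bases) between which fragments could be divided. The same caution holds for *SAUR68* and AT1G29430, which rose by 1.05 and 1.06.

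The positions of the called genes were examined because the double mutant came from a cross. Within 0.5 Mb of *IRE1B*, 13 of 188 tested genes were lower and 0 were higher (6.91% called), against 3.98% called on the whole of chromosome 5. Within 2 Mb the share was 4.78%, and within 0.5 Mb of *BLI* it was 1.81%. The nearest called neighbours were *PGL5*, *DMR6* and AT5G24580, which fell by 1.25, 0.65 and 1.15 on the log2 scale (adjusted p = 0.00576, 0.0197 and 0.00935 from limma). *LSU2* of the sulfate list also lies in the 0.5 Mb window. Effects of the insertion and of sequence inherited with it cannot be told apart for these genes.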

How the data were processed

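Gene expression was measured by RNA-Seq of total RNA from 12 seedling libraries, 3 per genotype. Per the methods of the study, the authors aligned reads to TAIR10 with TopHat and assessed differential expression with Cuffdiff. The deposited values are FPKM per gene, made by the authors, and read counts were not used here. The submitters' processing notes name Bowtie 0.12.2 and the mouse build mm8, although the gene IDs are those of Arabidopsis. Read counts per gene were not recovered from the FPKM values. Whether counting used strand is not given in the sources used here. FPKM of a library depends on its other genes.

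From these values, log2(FPKM + 0.1) of genes with a mean of at least 0.5 FPKM over the 12 libraries was fitted with limma 3.58.1 in R 4.3.3, with the 4 genotypes in one model (8 residual degrees of freedom) and a mean-variance trend. P-values for *bli ire1b* minus *bli* were adjusted by the Benjamini-Hochberg method over 20645 genes and called at 0.05. A fold change is on the log2(FPKM + 0.1) scale, which understates changes of low genes. The script was tested on simulated data. Gene names and positions came from RefSeq TAIR10.1, which matched 32810 IDs (97.8%), and promoters were the 250 bases before the annotated start.

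Genes and lists were chosen with earlier results of these data known. The genes checked were the mutated genes, the called genes nearest *IRE1B* and all UPR factors and stress markers. To these came the 12 largest falls and 8 largest rises among called genes with a mean of at least 1 FPKM and no overlap between groups. From the same genes, the 5 falls and 5 rises with the largest FPKM difference were added, with up to 4 called members of each list. Some of the genes checked are not named above. Other genes, and members of the lists described in full, were named after their values were seen. Of 193 genes checked, 8 had a near copy (at least 95% identity over 100 bases) and 51 overlapped another gene. Alternatives were other pseudocounts, filters and scalings, a fit of 2 genotypes, no trend, a replicate block and each library left out.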

Additional observations from a re-analysis of the deposited data

How the results depend on the processing

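Each count was recomputed under 21 alternatives. The 227 rises at adjusted p were 130 in a fit of *bli ire1b* and *bli* alone, 145 with no mean-variance trend and 50 to 257 with single libraries left out, and the 670 falls were 200 to 797 with single libraries left out. Quantile normalization gave 284 rises and 510 falls, so that rises were 35.8% of the calls against 25.3%. At the cutoffs of the study, a pseudocount of 1 gave 55 rises and 183 falls, no filter gave 193 rises, and single libraries left out gave 112 to 139 rises and 340 to 455 falls. The following alternatives for lists were chosen after seeing the data. In the fit of 2 genotypes, 7 sulfate genes, 3 UPR factors or stress markers and 1 ER chaperone gene fell. In that fit 8 low-oxygen genes rose, and with no trend 8 touch and wound genes fell. UPR factors or stress markers lower were 2 with a pseudocount of 1, 0 with a pseudocount of 0.01 and 0 with a filter at a mean of 1 FPKM. With single libraries left out, 5 to 11 sulfate genes, 3 to 20 touch and wound genes and 0 to 4 UPR factors or stress markers fell. In those fits 7 to 21 low-oxygen genes rose. The cause of these changes was not tested. Deviations of same-numbered libraries correlated weakly, at 0.0708, 0.0475 and 0.0288, although each library correlated best with its own number. These values do not settle whether replicate numbers pair the samples. A replicate block gave 197 rises and 716 falls. Of 179 called genes among the 193 checked, 51 were called in every alternative, and no checked gene reversed. Sequencing totals per library are given by the study but counts per gene were not used here, so no counting error stands beside low values.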
